A study of Danio rerio with 12 samples.

Results

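Zebrafish embryos treated with all-trans retinoic acid (atRA) and collected at 24 hours post fertilization (hpf), the pharyngula stage, were compared with embryos that received only the solvent dimethyl sulfoxide (DMSO). The comparison takes the 2 atRA and the 2 DMSO libraries that the labels place at 24 hpf, which are 4 of the 12 libraries of the series. All were made from whole embryos of wild-type genotype, per the labels. The atRA groups received 0.1 µM atRA and the DMSO groups the solvent. For the 24 hpf groups exposure began at 80% epiboly, late in gastrulation, so that treatment spanned the end of gastrulation, the formation of somites and the start of the pharyngula stage. The other 8 libraries were collected at 80% epiboly or at 12 somites, again 2 atRA and 2 DMSO libraries per stage. Per the labels, the 12 somites groups were also treated from 80% epiboly. The groups collected at 80% epiboly were treated from an earlier point of epiboly. Their exposure thus came before that of the 24 hpf groups and did not overlap it. The chorion and the yolk were taken off before lysis. The labels do not say how many embryos went into a library, or whether replicates came from separate clutches, so the spread between replicates may be technical.

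Retinoic acid is a signalling molecule that embryos make from vitamin A. Retinaldehyde dehydrogenases such as Aldh1a2 make it, mainly in the trunk mesoderm, and the Cyp26 enzymes break it down. It binds nuclear receptors of the RAR family, which sit on DNA as dimers with RXR and switch between repressing and activating nearby genes, the Hox genes of the hindbrain and trunk among them. At the pharyngula stage the hindbrain is segmented, the pharyngeal arches form and most organ rudiments are in place. In ATAC-seq, a sequencing assay of chromatin accessibility, a transposase cuts and tags open DNA, so that peaks of fragments mark accessible sites such as promoters and enhancers. In libraries from whole embryos, a site open in more cells and a site more open in each cell cannot be told apart.

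The data were the peak lists of the authors, with 1 list per library. The atRA lists held 192137 and 163454 peaks on chromosomes 1 to 25, against 185395 and 232794 peaks in the DMSO lists. The background pileup recovered from each list, a stand-in for depth, was 2.03 and 1.98 fragments in atRA, and 1.39 and 2.03 in DMSO. DMSO replicate 1 was therefore the shallowest of the 4 by this measure. Among the earlier lists, 2 were shallower still. DMSO replicate 1 of 12 somites had a background of 0.69 and 156361 peaks, and atRA replicate 2 of 80% epiboly 0.87 and 154354 peaks. A missing peak in these 2 lists may reflect their depth, which was not tested. The totals of fragments are unknown. Every peak name in both DMSO lists of 24 hpf carried the extra word "nuevo", which is Spanish for new, and no name did so in the other 10 lists. What that word records is not given in the sources used here. If the DMSO libraries of this stage were made, sequenced or called at another time, that and the treatment cannot be told apart.

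The first comparison asked how the lists as wholes differed. The atRA libraries averaged 177796 ± 20282 peaks and the DMSO libraries 209094 ± 33516 (SD, n = 2 each), and the ranges overlapped. The difference of -31299 peaks gave p = 0.667 in a two-sided exact permutation test over the 6 labelings of the 4 libraries, a design in which no p can be below 0.333. The median peak was 171 and 168 bp wide in atRA, against 179 bp in both DMSO libraries. Here the groups did not overlap, and the difference of -9.5 bp reached the smallest p the design allows (exact permutation, p = 0.333).

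The 2 atRA libraries had the lower folds at their best sites. Peaks were ranked within each list by their −log10 p-value, and the best 50000 of each list formed its top set. Every library thus gives the same number of peaks, whatever the length of its list. The median fold over background in the top set, a ratio that the authors' peak caller gave, was 7.17 and 6.84 in the atRA libraries, against 8.75 and 8.56 in the DMSO libraries. The 2 atRA libraries lay below both DMSO libraries (difference of means -1.65, exact permutation, p = 0.333, the smallest possible). At rank 50000 the fold was 5.94 and 5.19 in atRA and 6.54 and 6.56 in DMSO. At 80% epiboly the values were 10.7 and 8.99 in atRA and 10.4 in both DMSO libraries, which overlapped. At 12 somites they were 9.98 and 9.84 in atRA, above 7.70 and 9.57 in DMSO, where the 7.70 came from the shallowest list of the series. At the same background pileup of 2.03, the median folds at 24 hpf were 7.17 in atRA replicate 1 and 8.56 in DMSO replicate 2, and the part of depth was not tested. Since enrichment differed in this way, the sites were compared by rank within each library and not by fold between libraries.

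**Figure D1:**
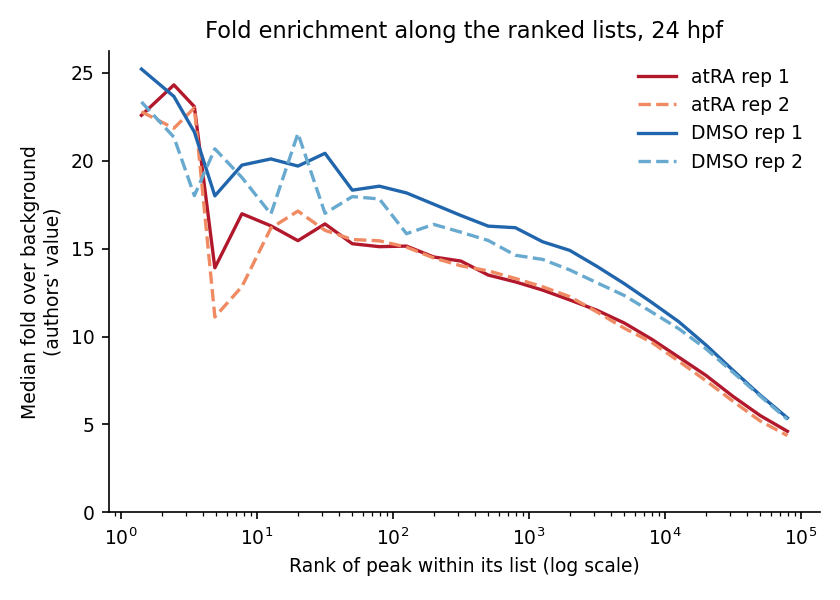
Median fold over background (vertical axis, the authors' values) against the rank of a peak within its list (horizontal axis, log scale) for the 2 atRA and the 2 DMSO libraries of 24 hpf. The 2 atRA lines run below the 2 DMSO lines in every interval from rank 4 on, with folds of 5.94 and 5.19 in atRA and 6.54 and 6.56 in DMSO at rank 50000.

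The strongest sites were common to all embryos. Of the best 1000 peaks, 100% in both atRA lists and 99.9% and 100% in the DMSO lists overlapped the top sets of all 3 other libraries. Of the best 20000, 95.5% and 95.6% did so in atRA, and 95.0% and 95.1% in DMSO. Of the whole top sets, 63.1% and 63.2% did so in atRA, and 63.2% and 62.9% in DMSO. This reads presence only, and a strong peak can change rank far within the top sets: at equal size, 2 libraries shared between 60% and 64% of their best 1000 peaks.

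A treatment effect on the set of accessible sites would make libraries of the same treatment share more peaks than libraries of different treatment. At 50000 peaks, the 2 atRA libraries shared 76.8% and the 2 DMSO libraries 78.3%. The 4 pairs of different treatment shared between 76.1% and 77.8%, so the atRA pair lay within their range. The mean of the same-treatment pairs exceeded that of the different-treatment pairs by 0.859 percentage points. The same 4 libraries can be split in 2 crossed ways, each putting 1 atRA and 1 DMSO library together. The crossed splits gave -1.07 points (same replicate numbers together) and 0.212 points (different numbers together). Each pair counts as same in 1 split and as different in the others. A higher treatment value thus makes the crossed values lower on average, by construction. The treatment split was the largest of the 3, which is p = 0.333 in an exact permutation over the splits, the smallest possible. Without DMSO replicate 1 the difference was -0.109 points.

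The order held at every size of top set that was tried, by a narrow margin. Same-treatment pairs were ahead by 2.13 points among the best 1000 peaks, where the 2 crossed splits gave -1.93 and -0.20. The margin was 1.02 points at 5000, 1.35 at 10000, 1.14 at 20000 and 0.884 at 100000 peaks. At 100000 peaks the 2 treatments parted: the atRA pair shared 69.5%, less than any of the 4 mixed pairs (70.4% to 73.1%), and the DMSO pair shared 75.1%, more than any of them.

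**Figure D2:**
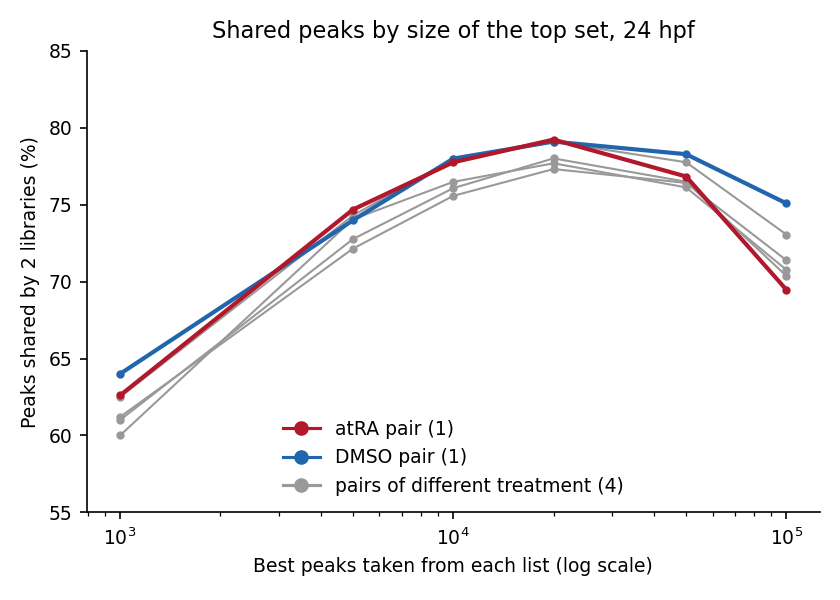
Percentage of peaks shared by 2 libraries of 24 hpf (vertical axis, cut below 55%) against the number of best peaks taken from each list (horizontal axis, log scale), for the atRA pair, the DMSO pair and the 4 pairs of different treatment. At 50000 peaks the atRA pair (76.8%) lies among the mixed pairs and the DMSO pair (78.3%) above them, and at 100000 peaks the atRA pair (69.5%) is lowest.

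Single sites were then followed. Merging the 4 top sets gave 73231 regions, of which 31324 (42.8%) were in the top sets of all 4 libraries. A region was called gained if both atRA libraries had it in their top sets and it was absent from the best 100000 peaks, the wide set, of both DMSO libraries. A lost region was the reverse. By this rule 160 regions were gained (0.218% of those tested) and 246 were lost (0.336%). Pairs of 1 atRA and 1 DMSO library, read by the same rule, gave 77 (0.105%), 81 (0.111%), 151 (0.206%) and 129 (0.176%) regions. The gained count was thus close to the highest crossed count, and the lost count was above all 4. The gained and lost counts together, 406, and their balance of -86 each had the smallest p the design allows (exact permutation over 6 labelings, p = 0.333).

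Leaving out DMSO replicate 1, the shallowest library, changed this picture. Among the other 3 libraries, 527 regions were in the atRA pair and not in DMSO replicate 2, fewer than the 589 and 1009 regions that the crossed pairs gave. DMSO replicate 2 alone had 1368 regions that the atRA pair lacked, between the crossed values of 1136 and 1477. Without DMSO replicate 2, the atRA pair had 655 regions against crossed values of 738 and 828, and DMSO replicate 1 alone had 1573 regions that the atRA pair lacked, above crossed values of 1402 and 1393. Without atRA replicate 1, the DMSO pair had 1201 regions that atRA replicate 2 lacked, against crossed values of 464 and 517. Without atRA replicate 2, it had 827 that atRA replicate 1 lacked, against 554 and 354. The atRA library of each of these trios had 1516 (replicate 2) and 1285 (replicate 1) regions that the DMSO pair lacked, against crossed values of 1047 and 1108, and of 1150 and 892. The counts thus stood above the crossed ones in both directions when an atRA library was left out. The atRA pair did not stand above the crossed pairs when either DMSO library was left out.

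Gained and lost regions were narrow and of middling rank. Their median widths were 273 bp (gained) and 272.5 bp (lost), against 306 bp over all regions. Regions in exactly 2 top sets had a median of 285 bp, and regions called by the crossed pairs 266 bp. The narrow width was thus not particular to the treatment split. The median of the worse of the 2 ranks was 44367.5 for gained regions (in atRA) and 44969 for lost regions (in DMSO), close to the limit of 50000. Just inside the rule for absence, the best rank in the other treatment was 100186 for a gained and 100052 for a lost region. Just outside it was 99818 and 99781. A gained region had no peak at all in either DMSO list in 15 cases, and a lost region had none in either atRA list in 46 cases. The crossed pairs gave 2 to 12 such regions. By library, 66 of the 160 gained regions had no peak in DMSO replicate 1 and 21 had none in DMSO replicate 2. Of the 246 lost regions, 77 had no peak in atRA replicate 1 and 130 had none in atRA replicate 2, which had the fewest peaks of the 4. Absence thus fell more often on the shorter list of each treatment, and the part of list length in it was not tested.

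**Figure D3:**
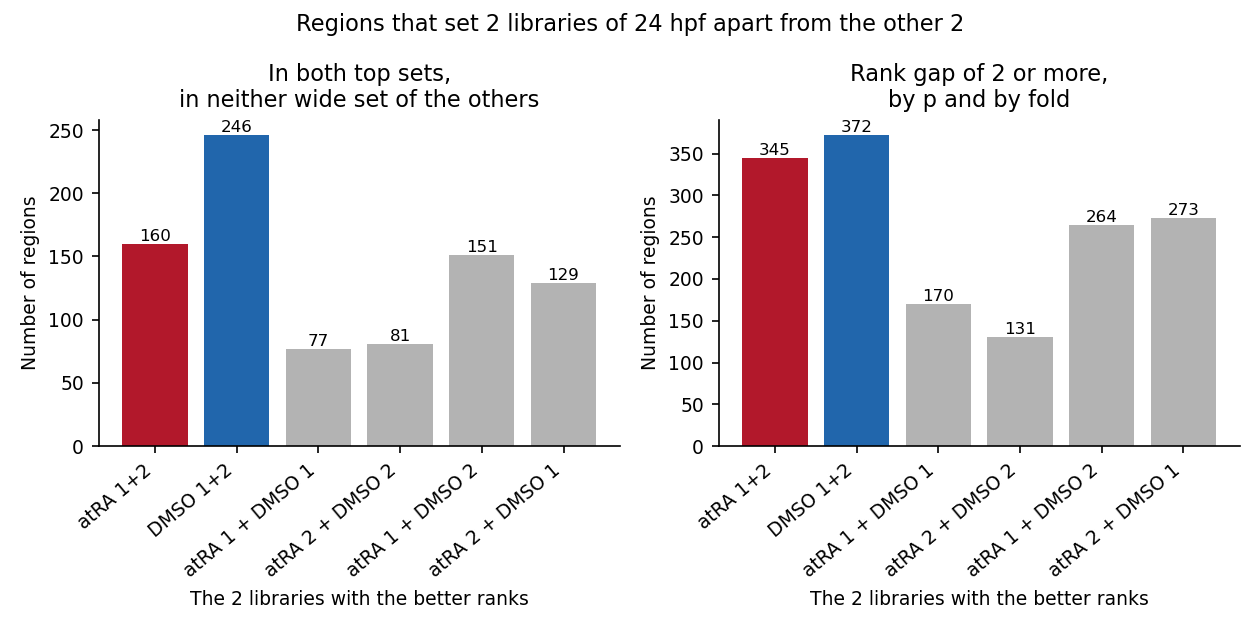
Numbers of regions (vertical axes, from 0) that set 2 libraries of 24 hpf apart from the other 2, for the 2 atRA libraries, the 2 DMSO libraries and the 4 crossed pairs, by presence and absence (left) and by a rank gap under both rankings (right). The left panel reads 160 and 246 against crossed counts of 77 to 151, and the right panel 345 and 372 against 131 to 273.

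The gained region with the best ranks lay at chr12:14427743-14428276 in build GRCz10. It ranked 4428 and 16537 in the atRA libraries, had no peak in DMSO replicate 1 and ranked 115361 in DMSO replicate 2. The pileup at its summit was 64 and 35 fragments in atRA, against 14 in DMSO replicate 2. None of the 8 lists of the earlier stages had a peak there, so that this site was seen at 24 hpf alone among the lists of this series, and at high rank only with atRA.

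The next, at chr3:23749128-23749769, ranked 16754 and 16123 in atRA and 108537 and 179269 in DMSO. It was also gained at 12 somites, where it ranked 40691 and 48402 in atRA. In DMSO it had no peak in replicate 1, the shallowest list of the series, and ranked 164124 in replicate 2. That the groups did not overlap at either stage follows from its being called gained at both. At 80% epiboly it ranked 148504 and 80284 in atRA and 205440 and 176200 in DMSO, outside all top sets.

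Other gained regions had a different past. The region at chr3:21487921-21488179 ranked 19437 and 16578 in atRA, had no peak in DMSO replicate 1 and ranked 160067 in DMSO replicate 2. In all 8 earlier libraries it was in the top set, at ranks of 4175 to 27292. It was thus an early site that stayed in the top sets of the atRA libraries at 24 hpf. DMSO replicate 2 still had a weaker peak there, with a summit pileup of 11 fragments, and DMSO replicate 1 was the shallower list. The region at chr18:17719210-17719656 ranked 18776 and 21675 in atRA and had no peak and rank 110515 in DMSO, and at 80% epiboly it was in neither atRA top set (79941 and 108717) but in both DMSO top sets (21383 and 27273). The region at chr4:39279356-39279551 ranked 22085 and 17687 in atRA and had no peak in the DMSO lists or in any earlier list. The remaining 5 of the 10 best-ranked were chr7:35771731-35772149, chr21:21661719-21662041, chr3:21628723-21628940, chr16:24373320-24373735 and chr17:732812-733309. Their atRA ranks lay between 10449 and 30129.

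The lost region with the best ranks lay at chr21:28646639-28646891. It ranked 160647 in atRA replicate 1 and had no peak in atRA replicate 2, against ranks of 22379 and 15070 in DMSO. At 12 somites the order was the other way round, with 12720 and 22177 in atRA and 56257 and 109048 in DMSO. A site at chr3:21088864-21089127 had no peak in either atRA list and ranked 10289 and 24954 in DMSO, with summit pileups of 32 and 29 fragments. It was in the top set of all 8 earlier libraries, at ranks of 4755 to 30130.

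This past was shared by 2 others of the 10 best-ranked lost regions. At chr2:39070844-39071172 the ranks were 123524 and 103905 in atRA and 25098 and 10835 in DMSO, and at chr25:23745189-23745397 they were 113066 and no peak in atRA and 11032 and 28963 in DMSO. Both were in the top sets of all 8 earlier libraries. By contrast, chr19:25782609-25782868 had no peak in either atRA list and ranked 27522 and 26994 in DMSO, and none of the 4 lists of 12 somites had a peak there. At 80% epiboly it did have peaks, ranked 141655 and 72576 in atRA and 24467 and 23595 in DMSO. The other lost regions of this group were chr2:11419115-11419446, chr16:44936558-44936893, chr15:1205587-1205846, chr12:38310329-38310604 and chr22:34663417-34663639.

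**Figure D4:**
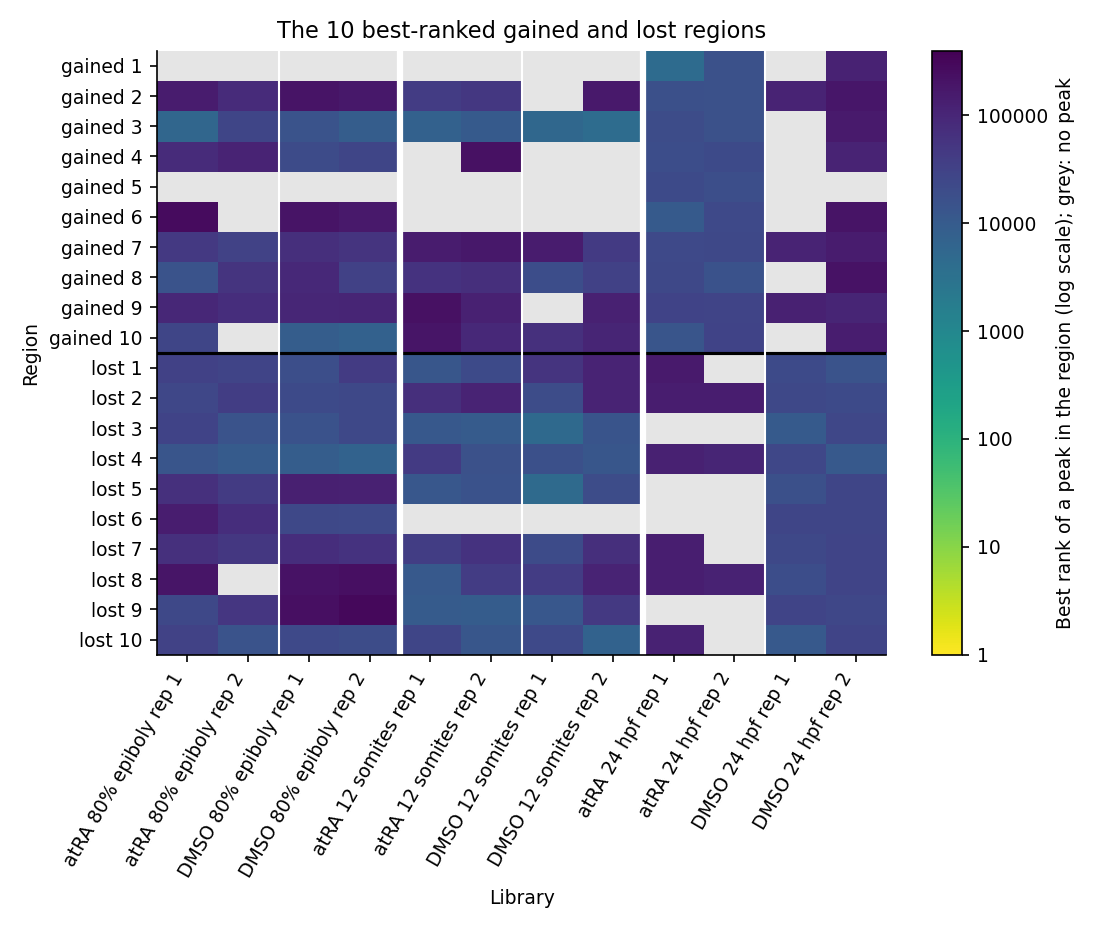
Best rank (colour, log scale, grey for no peak) of the 10 best-ranked gained regions (top) and the 10 best-ranked lost regions (bottom) in the 12 libraries, ordered by stage and with atRA left of DMSO within a stage. The 24 hpf columns follow from the rule, and the earlier columns range from no peak in any of the 8 lists (gained 1 and gained 5) to the top set of all 8 (gained 3, lost 3, lost 4 and lost 10).

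The earlier stages were not used by the rule, and their DMSO libraries are separate ones. Gained regions were seldom in the earlier top sets. At 12 somites 23.1% and 21.9% of them were in the atRA top sets, and 18.1% and 17.5% in the DMSO top sets. Over all 73231 regions these shares were 57.8% and 58.0% in atRA, and 51.4% and 54.9% in DMSO. Regions in exactly 2 top sets, a nearer comparison, had 39.9% and 39.7% in atRA, and 33.7% and 36.7% in DMSO. The atRA libraries of 12 somites thus held 4.69 points more of the gained regions than the DMSO libraries did, and 4.75 points more of all regions. At 80% epiboly the gained regions were in 22.5% and 18.1% of atRA and 16.9% and 20.6% of DMSO top sets, so the treatments overlapped. Over all regions those shares were 48.3% and 49.8% in atRA, and 49.3% and 48.8% in DMSO. Over regions in exactly 2 top sets they were 32.2% and 32.5% in atRA, and 32.3% and 32.2% in DMSO.

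Lost regions were found somewhat more often in the earlier top sets, nearer to the shares of regions in exactly 2 top sets. At 12 somites 32.9% and 36.6% of them were in the atRA top sets, and 32.1% and 35.8% in the DMSO top sets. The treatments overlapped. The atRA libraries of 12 somites held 0.813 points more of the lost regions than the DMSO libraries did, against the 4.75 points more of all regions. At 80% epiboly the shares were 30.5% and 28.9% in atRA and 29.7% and 33.3% in DMSO, which overlapped as well. Few single sites recurred. Of the 160 gained regions, 3 (1.88%) were also gained at 12 somites, against 342 of all 73231 regions (0.467%) and 0.662% to 1.3% of the regions called by crossed pairs: the site at chr3:23749128-23749769, chr9:14925248-14925527 and chr23:21737014-21737301. Another 3 (1.88%) were gained at 80% epiboly, against 187 of all regions (0.255%) and 0 to 2.6% by crossed pairs, at chr13:49920971-49921196, chr6:54977571-54977843 and chr13:40600852-40601142. Each of these shares by group rests on 3 regions or fewer. All 3 sites also gained at 12 somites had no peak in DMSO replicate 1 of that stage, the shallowest list of the series. The part of its depth was not tested. Of the 246 lost regions, 3 (1.22%) had been gained at 12 somites. None was lost at another stage, where only 41 (12 somites) and 176 (80% epiboly) of all 73231 regions were lost, so a count of 0 is uninformative.

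Presence and absence reads only sites near the limit of the lists, so sites present in every library were compared by how far their ranks differed. This comparison was chosen after the data were seen. It used 49367 regions that were among the best 100000 peaks of all 4 libraries both by p-value and by fold. A region was called up if both atRA ranks were at least 2-fold better than both DMSO ranks by each ranking, and down if the reverse held. By this rule 345 regions were up (0.699%) and 372 were down (0.754%). The crossed pairs gave 170 (0.344%), 131 (0.265%), 264 (0.535%) and 273 (0.553%) regions. At a gap of at least 4-fold, 13 were up (0.0263%) and 14 were down (0.0284%), against 2 (0.00405%), 0, 4 (0.0081%) and 4 (0.0081%) in the crossed pairs. Both treatment counts were above all crossed counts at either size of gap.

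These counts also leaned on DMSO replicate 1. Without it, the atRA pair was ahead of DMSO replicate 2 in 1496 regions and behind in 1870, inside the crossed values of 1124 to 1541 and 1631 to 1973. Without atRA replicate 1, atRA replicate 2 was ahead of the DMSO pair in 2099 regions and behind in 1708, above the crossed values of 1741 and 1759 and of 1149 and 1316. The order was the same without atRA replicate 2 and without DMSO replicate 2.

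The widest gap upward was at chr4:43688863-43689422. It ranked 2514 and 2777 in atRA, against 41175 and 41140 in DMSO. The fold over background there was 15.2 and 14.8 in atRA and 7.93 in both DMSO libraries, although the DMSO libraries had the higher median fold over their top sets. None of the 12 somite lists had a peak there, and at 80% epiboly it ranked 36901 and 69834 in atRA and 81070 and 79285 in DMSO.

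The next site, chr11:15278424-15278808, ranked 458 and 2447 in atRA and 46141 and 27254 in DMSO. Its summit held 56 and 44 fragments in atRA, against 17 and 28 in DMSO. No list of an earlier stage had a peak there, so it was among the best 5000 sites of the atRA libraries at 24 hpf with no trace in the 8 earlier lists. The site at chr3:23781569-23781911 ranked 10819 and 12259 in atRA and 79507 and 68918 in DMSO. At 12 somites it ranked 25917 and 40129 in atRA, had no peak in DMSO replicate 1 and ranked 117637 in DMSO replicate 2.

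Some wide gaps in rank went with small gaps in raw fold. From rank 4 on, the DMSO libraries had the higher median folds at like ranks. That offset makes raw fold gaps smaller at up sites and larger at down sites. At chr24:38404507-38404963, ranked 346 and 52 in atRA and 6556 and 8975 in DMSO, the fold was 13.7 and 14.7 in atRA and 12.0 and 10.3 in DMSO. At chr19:43392853-43393327, ranked 31 and 143 in atRA and 1309 and 1103 in DMSO, it was 19.5 and 18.9 in atRA and 18.5 and 17.2 in DMSO. At chr16:46402454-46402844 the ranks were 2596 in both atRA libraries and 14139 and 18334 in DMSO. That site had the same order in the libraries of both earlier stages. It ranked 2469 and 7422 in atRA and 44696 and 62694 in DMSO at 80% epiboly. At 12 somites it ranked 3080 and 1613 in atRA and 19449 and 15148 in DMSO.

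The widest gap downward was at chr16:30463145-30463484. It ranked 1630 and 1139 in atRA, against 27 and 110 in DMSO, with folds of 14.4 and 15.0 in atRA and 23.2 and 20.8 in DMSO. It was a strong site in all 8 earlier libraries, at ranks of 104 to 1744, and it was still among the best 5000 sites of both atRA libraries of 24 hpf. The site at chr10:5820297-5820765 ranked 104 and 195 in atRA and 10 and 5 in DMSO, and chr16:20249765-20250280 ranked 971 and 752 in atRA and 54 and 53 in DMSO.

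Weaker sites differed by more in absolute rank. At chr5:6648740-6649108 the ranks were 26950 and 40976 in atRA and 3823 and 3605 in DMSO, and the fold was 7.30 and 5.97 in atRA and 15.5 and 14.1 in DMSO. At chr2:25163482-25163951 they were 17246 and 21589 in atRA and 2849 and 2938 in DMSO. At chr15:43635030-43635364 they were 61216 and 48265 in atRA and 9408 and 10050 in DMSO. That the groups were far apart at these sites, relative to their replicates, follows from the rule that chose them. At chr15:43635030-43635364 the 4 libraries of 12 somites did not part by treatment, with 5511 and 9313 in atRA and 5685 and 9723 in DMSO.

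**Figure D5:**
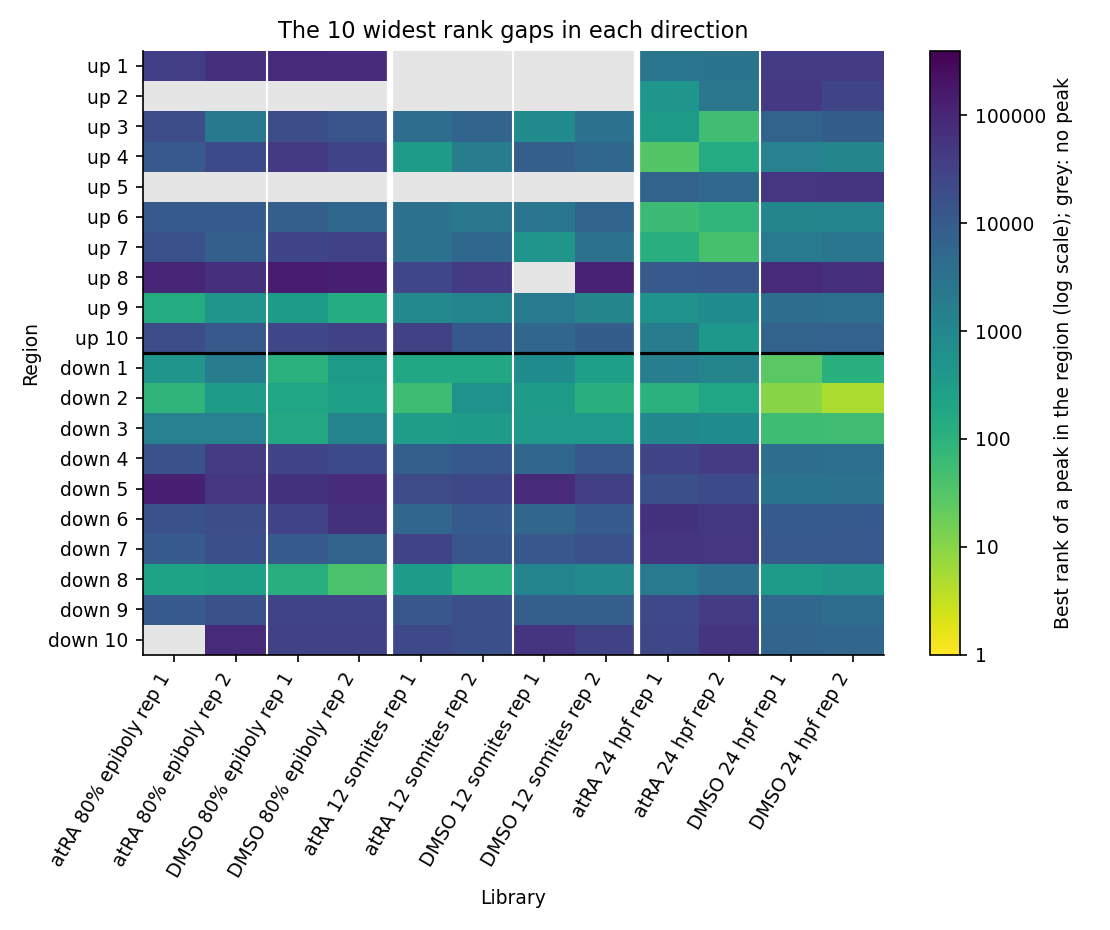
Best rank (colour, log scale, grey for no peak) of the 10 regions with the widest rank gap upward (top) and downward (bottom) in the 12 libraries, ordered by stage and with atRA left of DMSO within a stage. The 24 hpf columns follow from the rule; up 1 reads 2514 and 2777 in atRA against 41175 and 41140 in DMSO, and down 1 reads 1630 and 1139 in atRA against 27 and 110 in DMSO.

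The order of treatments at the earlier stages was read for the same regions. At 80% epiboly, both atRA libraries were ahead of both DMSO libraries in 104 of the 345 up regions (30.1%), and behind both in 52 (15.1%). Over all 49367 regions both atRA libraries were ahead in 19.9% and behind in 20.9%. Regions chosen by the crossed pairs had them ahead in 14.7% to 20.6% and behind in 20.9% to 28.2%. The lean of the up regions toward atRA at 80% epiboly was thus outside the crossed range on both counts. The exposure of the 80% epiboly libraries came before that of the 24 hpf libraries, and the part of this difference was not tested. For the 372 down regions the shares were 15.9% ahead and 27.2% behind, which lay within the crossed ranges.

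At 12 somites both atRA libraries were ahead in 130 of the up regions (37.7%) and behind in 45 (13.0%). The crossed pairs reached 39.2% ahead, so that lean was within their range. In the down regions both atRA libraries were ahead in 81 (21.8%) and behind in 63 (16.9%), and the crossed ranges were 18.3% to 39.2% ahead and 9.16% to 14.0% behind. The share behind was thus above the crossed range. All regions together had 24.8% ahead and 15.0% behind at this stage.

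Sites with no earlier peak gathered among the up regions. Of the 345 up regions, 11 (3.19%) had no peak in any of the 8 earlier lists, against 0 of the 372 down regions and 50 of all 49367. The crossed pairs had 0 or 1 such region. Of the 11, 3 lay together within chr1:27569822-27583634 and 3 within chr7:4118414-4121783, so most of the count came from these places. Among gained regions 7 of 160 had no earlier peak, among lost regions 2 of 246, and among all regions 287 of 73231 (0.392%). The same span of chromosome 1 held 2 of those gained regions.

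Several of these sites were neighbours. Counting groups of at least 3 regions with less than 100 kb between them, the 505 gained or up regions formed 5 groups with 18 regions, and the 618 lost or down regions formed 3 groups with 9. That is 3.56% and 1.46% of the regions. The regions called by the crossed pairs, in shorter lists of 212 to 415, formed 0 or 1 such group, with 0 to 0.746% of them. The largest group spanned chr1:27569822-27583634. It held 5 regions, which were all the regions of 24 hpf in that span, and none had a peak in an earlier list. At its strongest site, chr1:27583388-27583634, the ranks were 6625 and 4937 in atRA and 51013 and 53636 in DMSO. A group of 3 at chr7:4118414-4121783 likewise had no earlier peak, with ranks at its strongest site of 1319 and 2109 in atRA and 7562 and 19609 in DMSO. A group of 3 gained regions lay at chr4:39270009-39279551.

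A different kind of group lay at chr3:23595426-23781911. It held 4 gained or up regions among 37 regions of 24 hpf, and all 4 had peaks at earlier stages. Its strongest site, chr3:23675160-23675666, ranked 2808 and 2430 in atRA and 11237 and 12735 in DMSO. At 12 somites that site ranked 9472 and 5876 in atRA and 116162 and 44521 in DMSO, and at 80% epiboly 78767 and 13694 in atRA and 17820 and 25908 in DMSO. At 3 of the 4 sites both atRA libraries were ahead of both DMSO libraries at 12 somites, with atRA ranks of 48402 or better. At chr3:23595426-23595784 the atRA ranks there were 98287 and 170349, and DMSO replicate 2 ranked 191853. DMSO replicate 1 had no peak in a list of only 156361 peaks, so the order at that site was not clear. The order at 24 hpf follows from the rule, and the DMSO libraries of 12 somites are separate ones. At 80% epiboly, by rank in the full lists, both atRA libraries were ahead at 2 of the 4 sites and both behind at chr3:23595426-23595784. The strongest site was mixed. Of the 2 sites ahead, only chr3:23781569-23781911 had both atRA libraries in the wide sets (98890 and 66527). At chr3:23749128-23749769 atRA replicate 1 was outside (148504), and at chr3:23595426-23595784 both were (162307 and 149575). The lists of that stage held 154354 to 439137 peaks, so the order at these last 2 sites was not clear.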

How the data were processed

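ATAC-seq peak lists of 4 libraries at 24 hpf were analysed, with the 8 libraries of the earlier stages as background. Per the submitters' processing notes, Bowtie2, SAMtools, MACS2 and the build GRCz10 (danRer10) were used, with no versions or settings given in the sources used here. The authors deposited 1 list per library, so peaks were called per library and replicates were not pooled. Every peak name holds the word "nucfree". Each deposited peak has a fold enrichment, which is a ratio to the caller's local background, a −log10 p-value and a −log10 q-value, a summit position and a score, and these are the authors' own values. They were used to rank and describe peaks within a list. A choice of short fragments or a different depth changes which weak sites are called.

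Peaks on chromosomes 1 to 25 were ranked by −log10 p-value, then fold, then position. Overlap meant at least 1 bp. Fold and p were solved together for a whole-number summit pileup (all peaks within a tolerance of 0.001), and the most frequent background of a list served as depth. Fragment totals are unknown, so no counting intervals are given. The gained and lost counts were set beside those of the 2 crossed splits, and group differences were tested by exact permutation over libraries. Named regions were the 10 gained and 10 lost with the best worse rank, and, for rank gaps, regions chosen after their values were seen. Regions and lists were chosen with earlier results of these data known. The planned gene lists and motif shares were not run, because no genome or annotation of this build was used here, and no region is assigned to a gene. The calling was tested only on simulated lists, copies of 1 DMSO list with noise added to the p-values and planted peaks deleted outright. That setting is easier than the data, where most gained or lost regions kept a peak in the other treatment. It does not measure the error of the calls here. Replicate numbers did not pair the libraries. Python 3.11.15, numpy 2.4.6, pandas 2.3.3, SciPy 1.17.1 and matplotlib 3.10.9 were used.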

Additional observations from a re-analysis of the deposited data

Results flagged for a closer look

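The effect of atRA on the median peak width of a list was -9.5 bp at 24 hpf, against 4 bp at 80% epiboly and 13.5 bp at 12 somites. The 24 hpf effect differed from the earlier ones by -13.5 bp and by -23 bp. Each difference had p = 0.0556 by exact permutation of treatment within the 2 stages, over 36 labelings, the smallest p they can give. The effect on the median fold of the best 50000 peaks was -1.65 at 24 hpf and 1.28 at 12 somites, a difference of -2.92 (exact permutation, p = 0.0556). These measures were flagged because, at each stage compared, the atRA libraries lay all on one side of the DMSO libraries, and the sides were opposite. With measures chosen so, the smallest p follows by construction, and these p-values do not test the differences. The extra word in the names of both 24 hpf DMSO lists stands beside these values, and its part in them was not tested.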

How the results depend on the processing

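Gained and lost counts, reported as 160 and 246, were 52 and 35 with the best 20000 peaks, which reversed their balance to 17, and 1259 and 2422 with the best 100000. They were 5017 and 17724 at a q-value of at most 0.01, 363 and 487 with 50% reciprocal overlap, 2059 and 2324 with absence from the top set only, and 15 and 46 with absence from the whole list. Regions tested numbered 73231 as reported, 28654 with the best 20000 peaks, 159635 with the best 100000 and 352132 at the q-value limit. Counts across these settings are thus not like for like. The q-value limit also took unequal numbers of peaks per library, and absence there meant no peak in the whole list. Ranking by fold gave 198 and 347, and summit windows 226 and 295. Gained counts exceeded the highest crossed count with the best 20000 peaks (31), reciprocal overlap (345), summit windows (198), absence from the top set only (1994) or from the whole list (12), and without chromosome 4 (149 against 141). They did not with the best 100000 (1568), fold ranking (215) or the q-value limit (15009). Lost counts exceeded it in all of these. With 1 library left out in turn, gained counts ran from 527 to 1516, lost counts from 827 to 1573, and their balance from -918 to 458. The balance reversed without atRA replicate 1 (315) or replicate 2 (458), where 2 DMSO libraries face 1 of atRA. In every trio, crossed ones included, the single library had more regions than the pair. The sign of this balance thus follows from which treatment keeps 1 library, and it does not measure robustness. The shared-peak difference ran from -0.109 to 1.97 points and the difference in peak number from -54999 to -7600.

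Up and down counts, reported as 345 and 372, were 529 and 527 by p-value alone, 752 and 908 by fold alone, and 13 and 14 at a gap of 4. By p-value alone these were 0.997% and 0.993% of 53074 regions, and the crossed pairs gave 213 to 387. By fold alone the crossed pairs gave 386 to 631. With 1 library left out they ran from 1496 to 2117 and from 1589 to 2043. Same-numbered libraries did not deviate together (r = -0.079 over 49367 regions of log2 rank). With a replicate block, the gained and lost counts of 160 and 246 follow by construction, the shared-peak difference was 0.432 points, and the up and down counts were 647 and 678. No crossed counts were made for that block. These gap comparisons were added after the data were seen. In the wide sets of 12 somites, the share in atRA minus that in DMSO was 12.2 points for gained, 3.86 for lost and 7.96 for all regions. The motif alternative was not run.

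Pileup at rank 50000 was 17 and 18 fragments in atRA and 19 and 24 in DMSO, so weaker sites could be missed in any list. With 2 libraries per group no single region was tested. The causes of the changes between settings were not tested.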

Other observations

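Down regions were unevenly spread over the genome, a pattern noticed in the data. Chromosome 16 held 30 of the 372 down regions, which is 14.0 per 1000 of its regions, and the next highest chromosome had 10.1 per 1000. The crossed pairs, whose lists were shorter (131 to 273 regions), had 4 to 13 regions on chromosome 16. Up regions were most frequent on chromosomes 24, 4 and 21, at 11.6, 11.4 and 11.0 per 1000 (18, 17 and 20 regions). Chromosome 13 was close, at 10.4 per 1000, and the share over all regions was 0.699%. The crossed pairs had 7 to 9 regions on chromosome 24, 4 to 12 on chromosome 4 and 6 to 14 on chromosome 21. Because the lists differ in length, these crossed counts do not compare directly with the up and down counts. No excess on a chromosome is read from them. Of the gained and lost regions, 1 pair lay within 20 kb, chr13:38800916-38801232 (gained) and chr13:38796482-38796787 (lost), 4129 bp apart; the crossed splits had 0 and 2 such pairs.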
